A study of Homo sapiens with 8 samples.

Results

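The genes described here are the nuclear-encoded subunits of the mitochondrial respiratory chain and their close name-mates, measured by RNA sequencing in hTERT-RPE1 cells. Members were the rows of both expression tables whose symbol starts with NDUFA, NDUFB, NDUFC, NDUFS, NDUFV, SDH (A to D), UQCR, COX4 to COX8 or ATP5. Pseudogenes, whose symbols end in P and a number, were left out, and a member had to reach 1 FPKM in at least 2 libraries. FPKM, which divides fragments by transcript length and by library size, is an expression level per unit of length. Of 242 symbols with these prefixes 138 were pseudogenes, 104 rows remained, and 93 passed the filter, among 17994 tested and 57884 listed genes. The 93 members comprise 76 structural subunits, 12 assembly or related factors that share the prefixes, and 5 other entries (the RNA NDUFA6-AS1, a readthrough transcript and second listed entries of NDUFB8, SDHD and UQCR11). The subunits divide into 37 of complex I, 4 of complex II, 8 of complex III, 12 of complex IV and 15 of complex V. NDUFA4 and NDUFA4L2 carry complex I names and were placed with complex IV, where the NDUFA4 protein resides. The old symbols of the tables are kept (ATP5A1 is now ATP5F1A). The rule names no contrast between groups, although the filter can admit a gene through 1 genotype in 1 batch, as with the second entry of SDHD (1.70 FPKM without serine and glycine and 1.06 FPKM in complete medium in batch 1 wild type, at most 0.743 FPKM elsewhere).

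hTERT-RPE1 cells derive from human retinal pigment epithelium and divide without limit because they express telomerase. Cells labelled ATF3(-/-) or wildtype grew for 2 days in complete medium. They were then sampled as complete-medium cultures, or given serine/glycine-free medium for 8 h and sampled. No complete-medium culture was sampled after those 8 h. A difference between media thus also spans a medium change and 8 h of culture, and their parts were not tested separately. The terms medium difference and medium response are used below in that sense. ATF3 belongs to the ATF/CREB transcription factors and is switched on by many stresses. The 4 groups, with 2 libraries each, were the labelled knockout in serine/glycine-free medium, the labelled knockout in complete medium, the wild type in serine/glycine-free medium and the wild type in complete medium. Replicates 1 and 2 of every group are 2 independent experiments, called batches 1 and 2. The sources used here do not say whether the labelled knockout is 1 clone or several.

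Electrons from NADH enter the chain at complex I and those from succinate at complex II, which is also an enzyme of the citric acid cycle. Complex III passes them from ubiquinol to cytochrome c, complex IV passes them to oxygen, and complex V, the ATP synthase, uses the proton gradient that complexes I, III and IV build. Most subunits are nuclear genes whose products are imported into mitochondria, while a few hydrophobic core subunits of every complex except complex II are made from mitochondrial DNA. Nuclear respiratory factor 1 (NRF1), the ETS-family GA-binding protein (also called NRF2) and YY1 are the regulators best known to bind promoters of these nuclear genes. Serine and glycine feed mitochondrial one-carbon metabolism, and their absence calls up the amino acid response driven by ATF4.

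The libraries had FPKM sums of 2429662 to 3148153, a relative depth of 1.00 to 1.27 and an unknown absolute depth. Libraries correlated at r = 0.920 to 0.957 within a batch and at 0.768 to 0.815 between batches, across genes. ATF3 mRNA stood at 4.45 and 57.3 FPKM in serine/glycine-free and 3.38 and 20.8 FPKM in complete medium in the libraries labelled knockout (batch 1, then batch 2), against 6.46 and 18.01 FPKM and 3.47 and 3.65 FPKM in wild type. It was thus present in every library labelled knockout and higher there in batch 2, so the genotype is given as labelled. Of 6 markers of retinal pigment epithelium, RPE65, RLBP1 and TYR stayed under 1 FPKM in all 8 libraries, BEST1 and PMEL reached 1.37 and 1.15 FPKM in 1 library each, and MITF stood at 1.96 to 6.55 FPKM. The batch 2 libraries labelled knockout stood apart from the rest, with the epithelial cadherin CDH1 at 56.2 and 60.0 FPKM (serine/glycine-free, then complete), against 1.23 and 0.541 FPKM in batch 2 wild type. All 6 epithelial markers were higher there than in batch 2 wild type in both media, with sums of 559 and 711 FPKM, against 143 and 249 FPKM. Of 6 mesenchymal markers 5 were lower there in both media and COL1A1 was higher, with sums of 186 and 177 FPKM, against 756 and 683 FPKM. Vimentin (VIM), which makes up most of these sums in wild type, stood at 102.0 and 118 FPKM, against 638 and 598 FPKM, while fibronectin (FN1) was close to wild type, at 56.7 and 38.3 FPKM, against 58.7 and 44.5 FPKM. The mesenchymal marker SPARC stood at 343 to 429 FPKM in batch 1 and at no more than 1.66 FPKM in batch 2, in both genotypes. In bulk RNA, fewer cells of a type and less RNA per cell cannot be told apart. Below, paired values are batch 1 followed by batch 2.

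Promoter sequences show which of the known regulators' motifs the members carry, and 4 are printed for members on which the comparisons below turn. They come from RefSeq (GRCh38.p14), run from 250 bases before to 50 bases after the start and are given 5′ to 3′ on the gene's strand. Capitals mark motif matches. NDUFAF4, a complex I assembly factor (chr6:96897842-96898141, minus strand), holds an ETS motif at window bases 104 to 110. NDUFA8, an accessory subunit of complex I (chr9:122159730-122160029, minus strand), holds 2 overlapping NRF1 motifs at bases 247 to 256 and 253 to 262. NDUFV2, an iron-sulfur subunit of the NADH-oxidising module (chr18:9102449-9102748, plus strand), holds a YY1 motif on the opposite strand at bases 292 to 300. NDUFS6, an accessory subunit of complex I (chr5:1801157-1801456, plus strand), holds a C/EBP-ATF response element match at bases 20 to 27 and a YY1 motif at bases 259 to 267.
NDUFAF4: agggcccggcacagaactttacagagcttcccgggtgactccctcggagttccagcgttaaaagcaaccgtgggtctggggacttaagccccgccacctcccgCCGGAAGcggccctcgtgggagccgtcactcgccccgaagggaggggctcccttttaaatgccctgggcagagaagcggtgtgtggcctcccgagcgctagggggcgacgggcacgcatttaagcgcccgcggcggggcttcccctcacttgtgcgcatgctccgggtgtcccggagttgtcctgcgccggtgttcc
NDUFA8: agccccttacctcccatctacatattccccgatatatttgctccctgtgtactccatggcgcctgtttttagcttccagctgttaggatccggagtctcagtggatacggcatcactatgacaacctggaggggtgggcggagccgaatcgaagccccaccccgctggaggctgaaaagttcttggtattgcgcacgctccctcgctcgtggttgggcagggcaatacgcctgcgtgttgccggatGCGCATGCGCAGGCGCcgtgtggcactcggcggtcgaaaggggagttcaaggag
NDUFV2: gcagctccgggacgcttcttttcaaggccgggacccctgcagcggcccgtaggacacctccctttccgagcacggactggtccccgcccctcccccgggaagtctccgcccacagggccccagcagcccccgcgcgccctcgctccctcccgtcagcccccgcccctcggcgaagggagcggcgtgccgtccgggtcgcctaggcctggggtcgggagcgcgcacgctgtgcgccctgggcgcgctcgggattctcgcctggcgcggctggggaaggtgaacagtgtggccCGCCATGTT
NDUFS6: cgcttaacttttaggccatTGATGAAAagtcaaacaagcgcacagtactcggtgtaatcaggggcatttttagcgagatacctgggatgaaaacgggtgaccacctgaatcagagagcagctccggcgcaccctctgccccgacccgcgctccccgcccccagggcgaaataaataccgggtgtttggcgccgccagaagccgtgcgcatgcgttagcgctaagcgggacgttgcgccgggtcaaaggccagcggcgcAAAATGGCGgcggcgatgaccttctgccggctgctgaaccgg

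Of the 93 members, 74 had a promoter in the table, among them 62 of the 76 subunits. Motifs were searched as exact letters on both strands, and a gene counted if any of its start windows held a match. The NRF1 motif (GCGCA and GCGC with any base between them) was in 24.2% of subunit promoters (15 of 62), against 9.67% of the promoters of 15843 protein-coding genes. SDHA, SDHD, UQCR10, UQCR11, UQCRC1, UQCRFS1, ATP5C1, ATP5I, ATP5O and 6 complex I subunits held it. No complex IV subunit with a promoter to search did, and COX6C, NDUFA4 and NDUFA4L2 had none. The ETS motif (CCGGAAG) was in 32.3% of subunit promoters (20 of 62), against 16.5%. Complex IV was represented by COX4I1, COX5B, COX6A1, COX6B1 and COX8A, and complex V by ATP5A1, ATP5H, ATP5I, ATP5J and ATP5L. The YY1 motif (AANATGGCG) was in 27.4% (17 of 62), against 5.59%, with NDUFS1, NDUFS3, NDUFS4, NDUFS6, NDUFS7, NDUFS8 and NDUFV2 among its carriers. None of the 5 motif strings contains another. The cyclic AMP response element (TGACGTCA), which ATF/CREB factors bind, was in 8.06% (5 of 62: NDUFA10, NDUFB2, SDHB, ATP5G1 and ATP5I), against 3.0%. The C/EBP-ATF response element (TGATGNAA), bound by ATF4 with C/EBP partners, was in 3.23% (NDUFA5 and NDUFS6), against 3.60%. These are matches of letters, not measured binding.

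The subunits were abundant transcripts. Of the 76, 75 stood above 5 FPKM and 27 above 100 FPKM in every library, and 46 lay above the 90th percentile of tested protein-coding genes in all 8. The exception was NDUFA4L2, the hypoxia-induced paralogue of NDUFA4, listed at 0 in 3 libraries and at most at 2.65 FPKM. Within each complex the levels spread widely, although the proteins occur in fixed ratios.

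In complex I the highest levels belonged to the accessory subunits NDUFB9 (235 to 346 FPKM over the 8 libraries), NDUFC2 (253 to 342 FPKM) and NDUFA11 (160.1 to 316 FPKM). The lowest belonged to NDUFV3, an accessory subunit of the NADH-oxidising module, in 6 libraries (16.1 to 25.4 FPKM) and to NDUFA8 in the other 2. The core subunits that carry the redox centres covered a range of their own. NDUFV1, which binds NADH and flavin mononucleotide, ranged over 78.8 to 125 FPKM. NDUFS1, which holds several iron-sulfur clusters, ranged over 39.8 to 60.2 FPKM. NDUFS8, an iron-sulfur subunit of the ubiquinone-reducing module, had the highest mean of the core subunits, at 126 to 175 FPKM, and its partner NDUFS7 stood at 32.2 to 40.2 FPKM.

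Complex II is the only complex made entirely from nuclear genes. SDHC, a membrane anchor, was its lowest subunit in all 8 libraries (14.5 to 24.8 FPKM). The flavoprotein SDHA ranged over 38.5 to 52.5 FPKM. The other membrane anchor, SDHD, was the highest in every batch 1 library (88.7 to 116 FPKM), while the iron-sulfur subunit SDHB was the highest in every batch 2 library (80.6 to 89.8 FPKM). SDHB in batch 1 stood at 46.4 to 60.7 FPKM and SDHD in batch 2 at 67.7 to 88.5 FPKM. The order of the pair thus differed between the batches in all 4 groups.

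In complex III the small subunit UQCRQ led in all 4 batch 1 libraries (430.1 to 508 FPKM), and in batch 2 the lead passed among UQCRB, UQCRH and UQCRQ. The core proteins UQCRC1 and UQCRC2 stood at 111 to 177 and 36.1 to 76.9 FPKM. The Rieske iron-sulfur protein UQCRFS1 stood at 41.4 to 99.7 FPKM. UQCR11, a small subunit, was the lowest of the complex in batch 1 (17.2 to 27.9 FPKM) and was close to UQCRC2 at the low end in batch 2 (38.1 to 52.5 FPKM, against 36.1 to 42.7 FPKM).

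By mean FPKM over the 8 libraries complex IV carried the most abundant members, but the order differed between the batches. COX8A, the ubiquitous isoform of subunit 8, was its highest subunit in all 8 libraries (394 to 724 FPKM, mean 563 FPKM). COX7C followed with a mean of 432 FPKM and COX6C with 364 FPKM. In batch 1 these 2 averaged 268 and 277.5 FPKM, below UQCRQ of complex III at 458 FPKM. In batch 2 they averaged 595 and 451 FPKM, against 224 FPKM for UQCRQ. UQCRQ also exceeded COX8A in batch 1 labelled knockout, at 434 against 418 FPKM in serine/glycine-free and 430.1 against 394 FPKM in complete medium. Complex IV is also where tissue isoforms are known, and in each family the ubiquitous isoform made up nearly all of the signal. COX4I1 stood at 239 to 315 FPKM, while COX4I2, its lung and hypoxia isoform, reached at most 0.730 FPKM. COX6A1 stood at 220.2 to 446 FPKM, and the heart and muscle isoform COX6A2 was listed at 0 in all 8 libraries. COX7A2 stood at 137 to 196 FPKM, and its heart and muscle isoform COX7A1 reached 1.14 FPKM in 1 library. COX6B1 (112 to 169 FPKM), COX7B (98.4 to 142 FPKM) and COX8A had testis isoforms (COX6B2, COX7B2 and COX8C) at no more than 1.68, 0.851 and 0.406 FPKM. Of 5 markers of muscle, MYH7 was listed at 0 in all libraries, ACTN2, CKM and MYL2 stayed under 1 FPKM, and TNNT2 reached 1.02 FPKM in serine/glycine-free and 3.08 FPKM in complete medium in batch 1 wild type. NDUFA4L2 (2 libraries at 1 FPKM or more) lay just inside the filter, and COX6B2 and COX7A1 (1 library each) lay just outside it. NDUFA4 stood at 48.2 to 86.3 FPKM.

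In complex V the F1 head subunits differed severalfold per transcript length. The catalytic beta subunit ATP5B stood at 223 to 315 FPKM and the alpha subunit ATP5A1 at 79.8 to 226 FPKM. The delta subunit ATP5D was the lowest of the complex in every library (14.1 to 20.4 FPKM), and the epsilon subunit ATP5E stood at 54.2 to 96.1 FPKM. Subunit f (ATP5J2, 256 to 434 FPKM) and subunit b (ATP5F1, 193 to 407 FPKM) were at the upper end. Subunit c, which forms the rotor ring, is made from 3 genes that encode the same mature protein. ATP5G2 supplied 42.8% to 49.2% of their summed FPKM in batch 1 and 29.1% to 34.3% in batch 2. ATP5G3 led in batch 2 with 39.1% to 42.8%, against 29.4% to 33.0% in batch 1. ATP5G1 supplied 20.9% to 29.2% and was the smallest contributor except in batch 2 wild type in complete medium, where ATP5G2 supplied 29.1%. These genes resemble each other and their pseudogenes, so reads may have been split among them.

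The 2 batches differed more than the groups within them did. The batch tables were normalized separately, so the values in this paragraph describe and do not test. Of the 76 subunits, 52 had the same sign of batch difference in all 4 groups, 29 higher in batch 2 and 23 lower. The difference exceeded 1 on the log2 scale in 11 subunits (14.5%), against 28.6% of all tested genes, and its SD over subunits was 0.63, against 1.21. The subunits were therefore less spread between batches than genes at large, which include many low genes. Higher in batch 2 were NDUFV2 (mean log2 difference 1.55), the accessory subunit NDUFA13 (1.32), the complex III subunit UQCRB (1.30) and COX7C (1.15). Lower in batch 2 were the accessory subunit NDUFA9 (−1.69), ATP5G2 (−1.12), UQCRFS1 (−1.06) and UQCRQ (−1.03). In complex III 4 of the 8 subunits were past 1, a pair in each direction, and in complex II 0 were. NDUFA9, for example, stood at 37.7 to 41.1 FPKM in batch 2 and at 112 to 147 FPKM in batch 1.

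**Figure D1:**
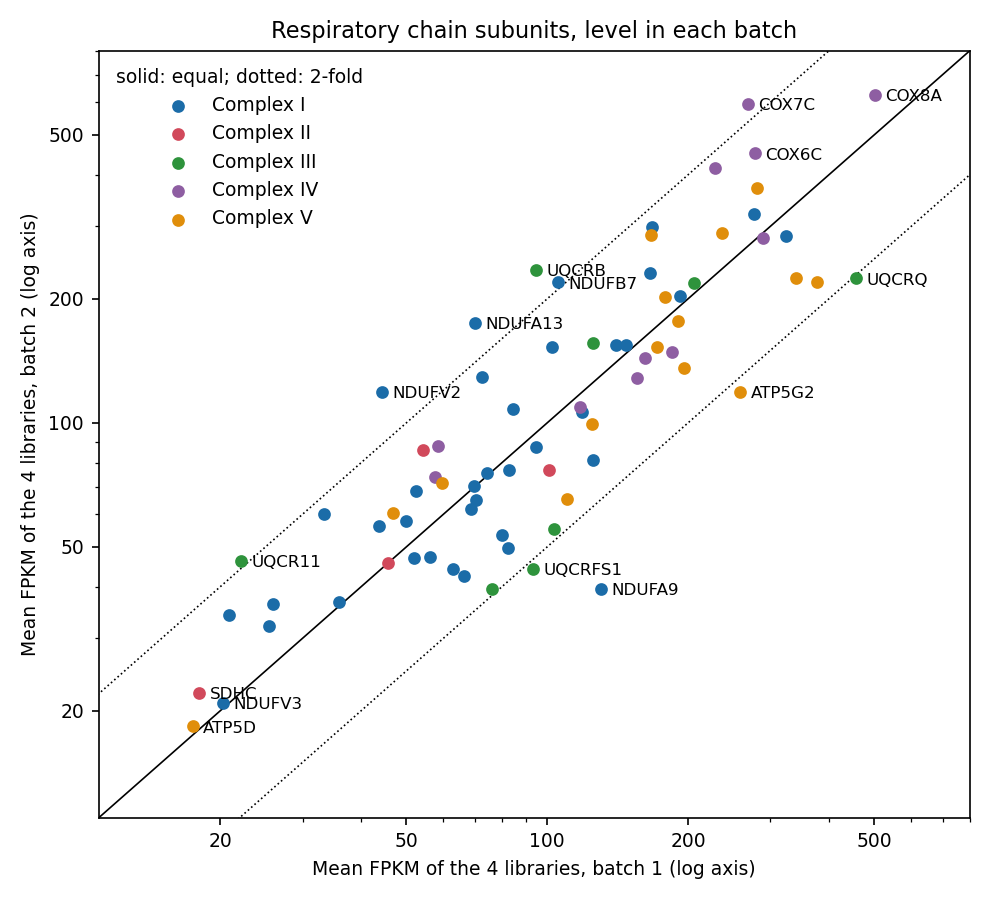
Mean FPKM of 75 subunits over the 4 batch 1 libraries (x axis) and the 4 batch 2 libraries (y axis), both on log axes, coloured by complex; NDUFA4L2, near 0, is not drawn. The solid line marks equal levels and the dotted lines a 2-fold difference; NDUFA9 and NDUFV2 lie outside the dotted lines on opposite sides, and COX8A is at the top right.

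The first comparison sets cultures after 8 h without serine and glycine against complete-medium cultures sampled at the start of those 8 h. It does not separate the medium from the time in culture. Structural subunits stood slightly lower, their median log2 fold change being −0.05 across 4 pairs (serine/glycine-free minus complete, in each genotype and batch), against 0.02 for all tested genes. The factors stood higher, with a median of 0.17. Their medians by pair were 0.208 and 0.149 in labelled knockout and 0.211 and 0.186 in wild type (batch 1, then batch 2). With each factor first averaged over the pairs of a batch, the median was 0.219 in batch 1 and 0.0626 in batch 2. Under 4 other scalings that batch 2 median ranged over −0.0194 to 0.051. The size of the batch 2 value thus depended on the summary and the scale. Fold changes are on the log2(FPKM + 1) scale, with the standard error of the limma fit. No member passed an adjusted p under 0.05 (limma, Benjamini-Hochberg over 17994 genes), where 0.133% of all genes did, and 7 of 93 members had an unadjusted p under 0.05, where 10.0% of all genes did. In all 4 pairs 5 of the 76 subunits were higher and 11 lower, where 14.6% of all genes were higher and 11.4% lower. Of the 12 factors 5 were higher in all 4 pairs and 0 lower. The medians of the complexes were −0.06 (I), 0.02 (II), −0.05 (III), −0.02 (IV) and −0.10 (V), and those of II, III and IV turned sign with single libraries. With 1 library left out they ranged over −0.0817 to −0.0398 (I), −0.0630 to 0.0685 (II), −0.125 to 0.00364 (III), −0.0870 to 0.0412 (IV) and −0.143 to −0.0306 (V). Complex II turned negative without the complete-medium library of batch 1 labelled knockout or of batch 2 wild type, and under each of 4 other scalings. Complex III turned positive without the complete-medium library of batch 2 labelled knockout. Complex IV turned positive without that library, the serine/glycine-free library of batch 1 labelled knockout, the complete-medium one of batch 1 wild type or the serine/glycine-free one of batch 2 wild type.

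Among the factors the largest estimate belonged to NDUFAF4, which acts with NDUFAF3 early in complex I assembly. It stood at 18.1 and 22.8 FPKM in labelled-knockout and 24.4 and 20.4 FPKM in wild-type cultures without serine and glycine, against 12.4 and 9.52 FPKM and 15.6 and 9.98 FPKM in complete medium. All 4 serine/glycine-free libraries were above all 4 complete-medium libraries. The log2 fold change was 0.82 ± 0.18 (adjusted p = 0.282, limma), the smallest adjusted p of any member in this comparison. Without the batch 2 libraries labelled knockout, which leaves 1 library in each labelled-knockout group, the estimate was 0.65. Its partner NDUFAF3 stood at 41.8 and 36.5 FPKM in labelled-knockout and 38.6 and 51.5 FPKM in wild-type cultures without serine and glycine, against 35.3 and 29.7 FPKM and 36.6 and 32.8 FPKM in complete medium. Its groups overlapped by a small margin, through the serine/glycine-free library of the batch 2 labelled knockout and the complete-medium wild type of batch 1. NDUFAF2, a late complex I assembly factor, stood at 62.6 and 39.9 FPKM in labelled-knockout and 54.99 and 39.3 FPKM in wild-type cultures without serine and glycine, against 38.6 and 34.1 FPKM and 46.4 and 34.02 FPKM in complete medium, a log2 fold change of 0.34 ± 0.12.

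ATP5S, also called coupling factor B, stood at 11.2 and 13.4 FPKM in labelled-knockout and 10.97 and 7.84 FPKM in wild-type cultures without serine and glycine, against 8.17 and 8.25 FPKM and 8.14 and 3.59 FPKM in complete medium. It was higher without serine and glycine in each of the 4 pairs, by a log2 fold change of 0.60 ± 0.23, while its listed locus is shared with 5 other genes. COX7A2L, which joins complexes III and IV into supercomplexes, stood at 89.5 and 94.1 FPKM in labelled-knockout and 147 and 97.2 FPKM in wild-type cultures without serine and glycine, against 71.2 and 66.3 FPKM and 124 and 75.7 FPKM in complete medium. Its log2 fold change was 0.35 ± 0.16 (adjusted p = 0.541, limma), with batch 1 wild type the highest in both media. The other factors did not share 1 direction across the pairs. NDUFAF1 and NDUFAF5, for instance, were higher in some pairs and lower in others, and SDHAF1, an assembly factor of SDHB, stood at 16.1 and 14.6 FPKM in labelled-knockout and 18.5 and 9.91 FPKM in wild-type cultures without serine and glycine, against 12.7 and 13.4 FPKM and 14.8 and 11.98 FPKM in complete medium. Its estimate of 0.12 ± 0.18 turned negative (−0.06) without batch 1 wild type in serine/glycine-free medium.

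Complex I subunits included the lowest fold changes. NDUFA8 stood at 16.8 and 32.8 FPKM in labelled-knockout and 18.8 and 26.6 FPKM in wild-type cultures without serine and glycine, against 22.5 and 39.99 FPKM and 25.4 and 36.9 FPKM in complete medium. Within either batch both serine/glycine-free libraries lay below both complete-medium libraries. Its log2 fold change was −0.39 ± 0.13 (adjusted p = 0.411, limma), and −0.42 without the batch 2 libraries labelled knockout. NDUFB1, an accessory subunit of the membrane arm, stood at 107 and 88.6 FPKM in labelled-knockout and 117 and 92.8 FPKM in wild-type cultures without serine and glycine, against 122 and 124 FPKM and 129 and 119.7 FPKM in complete medium, and its serine/glycine-free values were all below its complete-medium values. NDUFB10, another membrane arm subunit, had −0.26 ± 0.10, and the core subunit NDUFS8 had −0.21 ± 0.09. Lower by less in all 4 pairs were NDUFS6 (−0.17), NDUFB3 (−0.17) and NDUFA7 (−0.08). In the other direction stood NDUFS1 (0.21 ± 0.10), the accessory subunit NDUFS4 (0.18 ± 0.10) and NDUFV1 (0.17 ± 0.11), each higher in all 4 pairs. NDUFS1 stood at 48.97 and 46.2 FPKM in labelled-knockout and 60.2 and 57.2 FPKM in wild-type cultures without serine and glycine, against 47.4 and 39.8 FPKM and 51.2 and 44.3 FPKM in complete medium. Complex I thus held subunits of both directions within its peripheral arm.

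The other complexes held few subunits that moved alike in every pair, and none in complex II. In complex III the small subunit UQCR10 stood at 90.8 and 44.6 FPKM in labelled-knockout and 106 and 55.5 FPKM in wild-type cultures without serine and glycine, against 95.6 and 59.1 FPKM and 120.1 and 61.9 FPKM in complete medium, a log2 fold change of −0.20 ± 0.10. UQCRFS1 was higher in all 4 pairs by only 0.07 ± 0.10, and UQCRC1 had −0.13 ± 0.14 with no shared direction. In complex IV COX6B1 stood at 157 and 113 FPKM in labelled-knockout and 133 and 112 FPKM in wild-type cultures without serine and glycine, against 162 and 156 FPKM and 169 and 132 FPKM in complete medium. It was lower in all 4 pairs (log2 fold change −0.27 ± 0.11), COX7C was lower by less (−0.14 ± 0.11) and COX5A was higher by 0.05 ± 0.12. In complex V ATP5J, which encodes coupling factor 6 of the peripheral stalk, stood at 43.02 and 46.9 FPKM in labelled-knockout and 41.5 and 61.3 FPKM in wild-type cultures without serine and glycine, against 46.5 and 58.5 FPKM and 56.2 and 74.5 FPKM in complete medium. Its log2 fold change was −0.28 ± 0.11 (adjusted p = 0.494, limma), and it was the complex V subunit with 1 direction in all 4 pairs. In complex II SDHA stood at 43.2 and 40.5 FPKM in labelled-knockout and 38.5 and 47.7 FPKM in wild-type cultures without serine and glycine, against 52.5 and 47.96 FPKM and 48.7 and 46.6 FPKM in complete medium, a log2 fold change of −0.20 ± 0.12 that was reversed in batch 2 wild type.

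**Figure D2:**
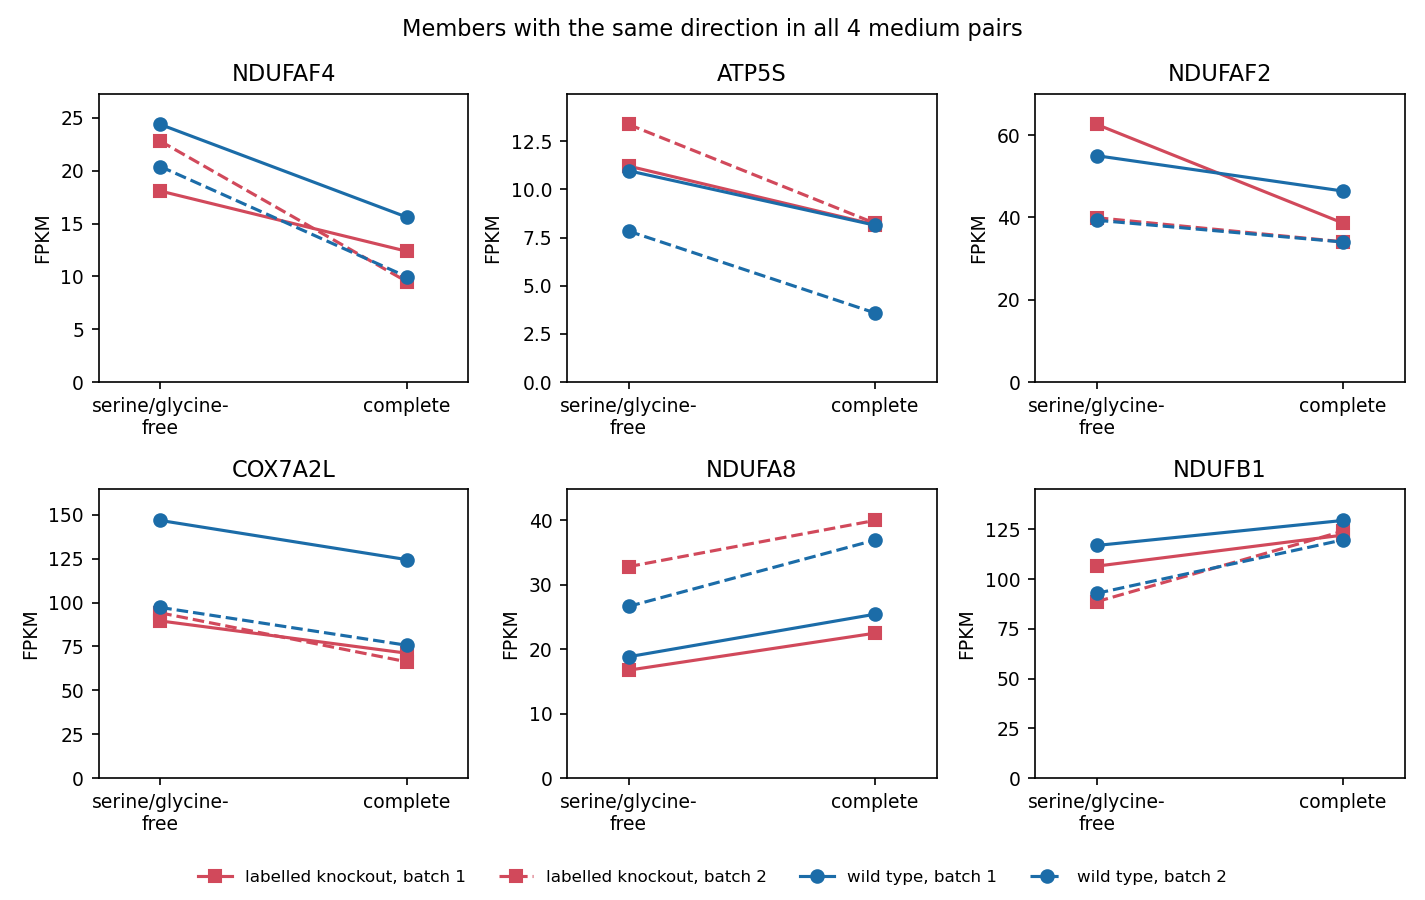
FPKM (y axis, from 0) of 4 factors (NDUFAF4, ATP5S, NDUFAF2 and COX7A2L) and 2 complex I subunits (NDUFA8 and NDUFB1) in serine/glycine-free medium (left) and complete medium (right). Each line joins the 2 libraries of 1 genotype and batch; NDUFAF4 descends towards complete medium in all 4 lines, and NDUFA8 ascends in all 4.

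Summed over the 93 members, the share of the FPKM of all protein-coding genes was lower without serine and glycine in each pair. It was 2.52% and 2.88% in serine/glycine-free medium in labelled knockout, against 2.59% and 3.29% in complete medium. In wild type it was 2.51% and 2.88%, against 2.73% and 3.15%. The protein-coding sum itself was higher without serine and glycine in each pair. The summed FPKM of the members was higher in batch 1 labelled knockout (9887, against 9743 in complete medium) and lower in the other pairs. The scale affects how many subunits share a direction. With each library scaled to the same protein-coding FPKM sum, 1 subunit was higher and 33 lower in all 4 pairs, where 10.7% of all genes were higher and 15.6% lower. Scaling to the same total FPKM gave 0 higher and 24 lower (all genes 10.8% and 14.1%), and upper-quartile scaling 2 and 18 (12% and 14.1%). Median-of-ratios scaling gave 3 and 12 (13.1% and 13.0%), close to the values as deposited. Of the 12 factors 4 were higher in all 4 pairs under total FPKM scaling and 5 under each of the other 3, and 1 was lower under each of the 4.

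**Figure D3:**
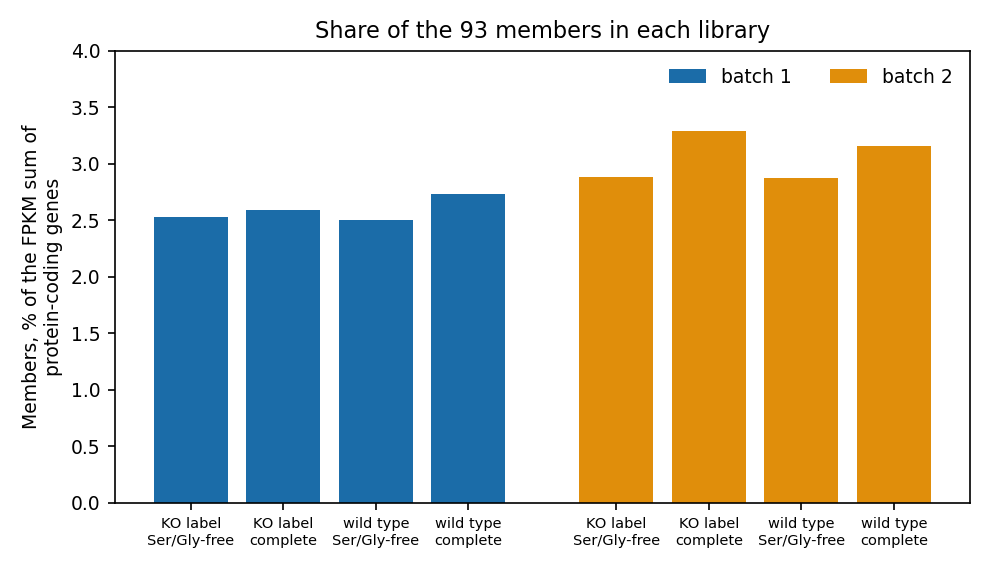
Summed FPKM of the 93 members as a percentage of the FPKM of all protein-coding genes (y axis, from 0), 1 bar per library, with batch 1 in blue and batch 2 in orange. In each genotype and batch the serine/glycine-free bar (left of its pair) is below the complete-medium bar, and batch 2 bars are above batch 1 bars.

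Taken separately, the genotypes gave subunit medians of −0.05 in labelled knockout and −0.06 in wild type, but the batches behind them differed. In labelled knockout the medians were 0.01 in batch 1 and −0.10 in batch 2, and in wild type −0.14 in batch 1 and 0.00611 in batch 2. The labelled-knockout median was −0.00196 and −0.0162 without its complete-medium and its serine/glycine-free library of batch 2, and −0.0901 without its complete-medium library of batch 1. The wild-type median was −0.0196 and −0.129 without its complete-medium library of batch 1 and of batch 2. Members called numbered 0 in both (limma, adjusted p under 0.05), where 0.0167% of all genes were called in labelled knockout and 0.0556% in wild type. Unadjusted p under 0.05 was reached by 3 members in labelled knockout (NDUFAF4, NDUFAF2 and the second entry of UQCR11) and by 2 in wild type (NDUFAF4 and the second entry of UQCR11), where 5.59% and 5.64% of all genes reached it. NDUFAF4 had a log2 fold change of 0.84 ± 0.25 in labelled knockout and 0.79 ± 0.25 in wild type.

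**Figure D4:**
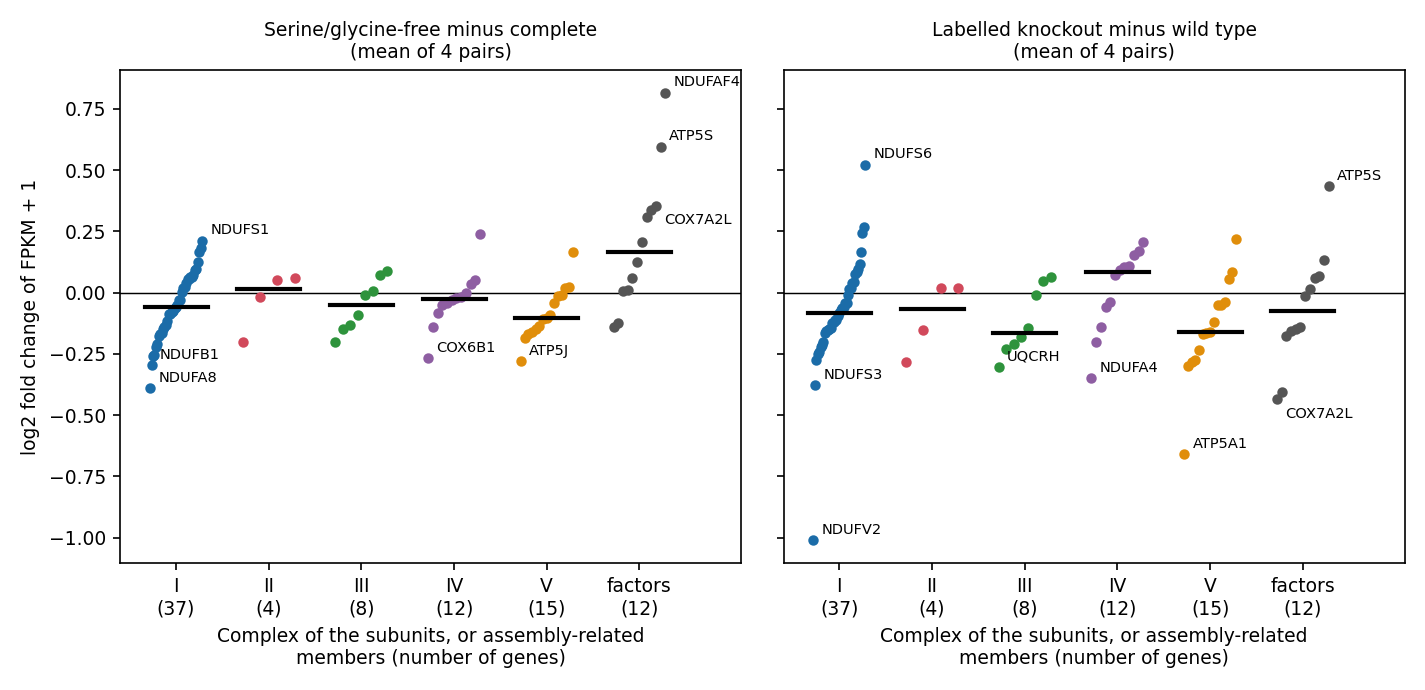
log2 fold change of FPKM + 1 (y axis) of each subunit by complex, and of the 12 factors, for serine/glycine-free minus complete medium (left) and labelled knockout minus wild type (right), each the mean of 4 pairs; points are genes and bars their median. On the left the median of the factors lies above that of each complex, with NDUFAF4 highest at 0.82, and on the right NDUFV2 at −1.01 and NDUFS6 at 0.52 are the extremes of complex I.

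The second comparison sets libraries labelled knockout against wild type in the same medium and batch. As deposited, more subunits stood lower than higher in the labelled knockout, 22 against 3 of 76 in all 4 pairs, where 13.2% of all genes were lower and 8.34% higher. The median log2 fold change of the subunits was −0.08, against −0.03 for all genes. This imbalance depended on the scale. With each library scaled to the same FPKM sum 9 subunits were lower and 12 higher, with a median of 0.00303, where 7.61% of all genes were lower and 12.6% higher. The median of all genes was 0.0345 under that scaling, so the subunit median still lay below it. Of each FPKM sum 84.5% to 88.7% lay outside protein-coding genes. The other scalings kept more subunits lower than higher, 18 against 5 with median-of-ratios (all genes 10.9% and 10.2%), 15 against 8 with upper-quartile (9.83% and 11%) and 15 against 9 with protein-coding sum scaling (9.45% and 11.3%). No member passed an adjusted p under 0.05 (limma), where 0.0445% of all genes did, and 11 of 93 had an unadjusted p under 0.05, where 10.9% of all genes did. By complex the medians were −0.08 (I), −0.07 (II), −0.16 (III), 0.08 (IV) and −0.16 (V). With 1 library left out they ranged over −0.113 to −0.0502 (I), −0.166 to −0.0368 (II), −0.230 to −0.0766 (III), 0.0250 to 0.104 (IV) and −0.207 to −0.0873 (V). With total FPKM scaling the complex I median was −0.00391 and that of complex II 0.0117. In complex IV the batches differed. In batch 2, 10 of its 12 subunits were higher in both media in the libraries labelled knockout and 1 lower, where 31.8% of all genes were higher and 34.9% lower. In batch 1, 0 of 12 were higher in both media and 6 were lower, where 25% and 34.8% of all genes were, and total FPKM scaling made this 5 higher and 4 lower. Without the batch 2 libraries labelled knockout the complex IV median was −0.08.

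NDUFV2 had the largest difference of any subunit. It stood at 21.9 and 95.6 FPKM without serine and glycine and 24.97 and 93.5 FPKM in complete medium in libraries labelled knockout, against 73.6 and 158 FPKM and 56.9 and 129 FPKM in wild type. In each batch both libraries labelled knockout lay below both wild-type libraries. The log2 fold change was −1.01 ± 0.20 (adjusted p = 0.381, limma). Without the batch 2 libraries labelled knockout it was −1.43, an estimate from batch 1 alone with 1 labelled-knockout library per medium. Its listed locus is shared with 8 other genes. Its neighbours in the NADH-oxidising module did not share this size of difference. NDUFV1 had −0.01 ± 0.11, NDUFS1 −0.21 ± 0.10 and NDUFV3 −0.11 ± 0.17. NDUFS6, an accessory subunit associated with that module, differed in the other direction and stood at 72.4 and 75.2 FPKM without serine and glycine and 77.5 and 81.6 FPKM in complete medium in libraries labelled knockout, against 56.8 and 42.2 FPKM and 68.1 and 48.5 FPKM in wild type. Its log2 fold change of 0.52 ± 0.14 was larger in batch 2 (0.74 in complete medium and 0.82 without serine and glycine) than in batch 1 (0.18 and 0.34). The accessory membrane-arm subunits NDUFB9 (0.27 ± 0.12) and NDUFB4 (0.24 ± 0.11) were also higher in all 4 pairs. NDUFS3, a core subunit of the ubiquinone-reducing module, stood at 58.6 and 50.6 FPKM without serine and glycine and 71.3 and 55.1 FPKM in complete medium in libraries labelled knockout, against 76.5 and 68.2 FPKM and 74.9 and 86.1 FPKM in wild type, a log2 fold change of −0.38 ± 0.13. A further 11 complex I subunits were lower in all 4 pairs by log2 values between −0.27 (NDUFA10) and −0.12 (NDUFB10).

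In complex II SDHD stood at 88.7 and 67.7 FPKM without serine and glycine and 91.6 and 72.4 FPKM in complete medium in libraries labelled knockout, against 108 and 88.5 FPKM and 116 and 78.9 FPKM in wild type, lower in all 4 pairs by −0.28 ± 0.10. Its listed locus is shared with 16 other genes. SDHA had 0.02 ± 0.12, SDHB −0.15 ± 0.11 and SDHC 0.02 ± 0.15, with no shared direction. In complex III UQCRH, the hinge protein of cytochrome c1, stood at 184 and 196 FPKM without serine and glycine and 174 and 206 FPKM in complete medium in libraries labelled knockout, against 243 and 223 FPKM and 222 and 249 FPKM in wild type. Its log2 fold change was −0.30 ± 0.11, and UQCR10 had −0.23 ± 0.10, both lower in all 4 pairs.

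In complex IV NDUFA4 stood at 48.2 and 65.5 FPKM without serine and glycine and 51.8 and 65.8 FPKM in complete medium in libraries labelled knockout, against 68.2 and 78.5 FPKM and 62.4 and 86.3 FPKM in wild type. Libraries labelled knockout lay below wild type in both media and batches, by −0.35 ± 0.10 (adjusted p = 0.393, limma), and no other complex IV subunit had the same sign in all 4 pairs. COX8A illustrates the opposite signs of the batches, at 418 and 594 FPKM without serine and glycine and 394 and 724 FPKM in complete medium in libraries labelled knockout, against 582 and 579.7 FPKM and 610.3 and 605 FPKM in wild type. COX6C stood at 277 and 516 FPKM without serine and glycine and 253 and 531 FPKM in complete medium in libraries labelled knockout, against 289 and 385 FPKM and 291 and 371 FPKM in wild type, higher in the labelled knockout in batch 2 in both media. The related factor COX7A2L stood lower in labelled knockout, by −0.43 ± 0.16 over all pairs and by −0.75 in batch 1 alone, without the batch 2 libraries labelled knockout. COX7B had −0.14 ± 0.14 and stood at 98.4 and 106 FPKM without serine and glycine and 106 and 119.6 FPKM in complete medium in libraries labelled knockout, against 142 and 101 FPKM and 124 and 110.4 FPKM in wild type.

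In complex V ATP5A1 stood at 178 and 79.8 FPKM without serine and glycine and 176 and 97.4 FPKM in complete medium in libraries labelled knockout, against 204 and 167 FPKM and 226 and 199.6 FPKM in wild type. The 2 batch 2 libraries labelled knockout were the lowest of all 8. The log2 fold change was −0.66 ± 0.19 (adjusted p = 0.39, limma), and −0.27 in batch 1 alone, without those libraries. The epithelial marker CDH1 and vimentin differ between the same libraries, and their part in the result was not tested. The beta subunit ATP5B, its partner in the head, had 0.08 ± 0.11. ATP5G1 (−0.28 ± 0.11), subunit d (ATP5H, −0.30 ± 0.14), subunit b (ATP5F1, −0.17 ± 0.10) and ATP5O, the oligomycin sensitivity protein of the stalk (−0.28 ± 0.11), were also lower in all 4 pairs. ATP5O stood at 181 and 146 FPKM without serine and glycine and 183 and 156 FPKM in complete medium in libraries labelled knockout, against 198 and 208 FPKM and 202 and 196 FPKM in wild type. ATP5G1 stood at 118 and 79.8 FPKM without serine and glycine and 116 and 91.9 FPKM in complete medium in libraries labelled knockout, against 125 and 101 FPKM and 139 and 125 FPKM in wild type.

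**Figure D5:**
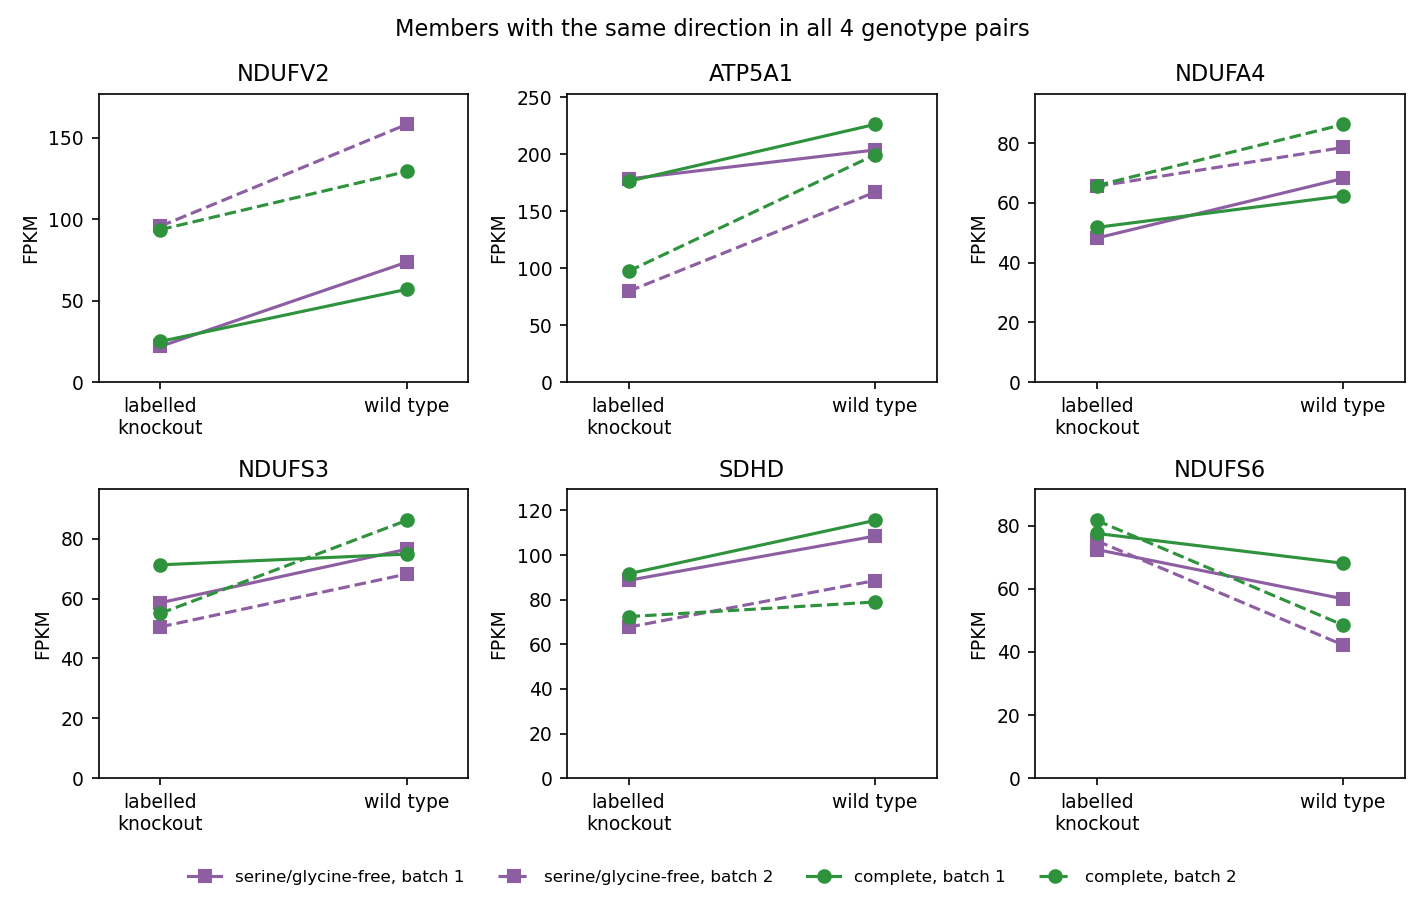
FPKM (y axis, from 0) of 6 subunits in libraries labelled knockout (left) and wild type (right); each line joins the 2 libraries of 1 medium and batch. NDUFV2, ATP5A1, NDUFA4, NDUFS3 and SDHD ascend towards wild type in all 4 lines, and NDUFS6 descends.

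In each medium alone no member was called. In complete medium 0.0333% of all genes were called and in serine/glycine-free medium 0.050%. At an unadjusted p under 0.05 there were 4 members in complete medium, where 4.78% of all genes reached it, and 3 in serine/glycine-free medium, where 5.86% did. NDUFV2 was among them in both, with a log2 fold change of −1.21 ± 0.28 in serine/glycine-free and −0.81 ± 0.28 in complete medium.

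The third comparison asks whether the medium response differs between the genotypes. The median difference over the 76 subunits (labelled-knockout response minus wild-type response) was −0.01, against −0.02 for all genes. Of 93 members 0 were called (limma), where 0.0611% of all genes were called, and 2 had an unadjusted p under 0.05, where 1.53% of all genes did. Both were low entries outside the structural subunits, the second entry of UQCR11 and NDUFA6-AS1. NDUFV2 had the lowest value of any subunit (−0.40 ± 0.40, adjusted p = 1, limma). NDUFAF4 had 0.06 ± 0.35 and NDUFA8 0.09 ± 0.26, less than their standard errors.

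Other genes of the pathway were read from lists beside the members, and none of their genes was called in either average. The 13 subunits made from mitochondrial DNA had a median medium difference of −0.32, with 9 lower and 0 higher in all 4 pairs (all genes 11.4% and 14.6%). Their median genotype difference was 0.40, with 6 higher and 0 lower in all 4 pairs (all genes 8.34% and 13.2%). By pair that median varied, at 0.0355 and 0.660 without serine and glycine and 0.489 and 0.267 in complete medium. Their genotype values thus had the opposite sign to the median of the nuclear subunits, in libraries where the nuclear sign depends on the scale. Of 34 assembly factors outside the prefixes, 8 were higher and 3 lower in all 4 medium pairs (median 0.04), and 2 were higher and 7 lower in all 4 genotype pairs (median −0.01). Of 11 regulators of mitochondrial biogenesis, 6 were higher and 0 lower in all 4 medium pairs (median 0.21), and 1 was higher and 1 lower in all 4 genotype pairs (median 0.13). Cytochrome c (CYCS) and cytochrome c1 (CYC1) had medium differences of 0.01 and −0.00317.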

How the data were processed

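RNA from 8 cultures was sequenced. The authors deposited FPKM values, in a separate table for each batch that lists 57884 Ensembl genes in 4 libraries. The submitters' processing notes name TopHat, Cufflinks, Cuffdiff and hg19. Versions and settings were not among the information used here. Each table was normalized on its own, and absolute depth is unknown. A value of exactly 0 may be an estimate that failed. Of the members 60 share a listed locus with another gene, so reads may have been split between them, and whether counting used strand is not known here.

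Genes at 1 FPKM or more in at least 2 libraries were tested on log2(FPKM + 1), a scale that understates changes of low genes. Limma 3.58.1 (R 4.3.3) was run with 4 group means, batch as a block and a trended prior, giving 3 residual and 2.97 prior degrees of freedom. P-values were two-sided and Benjamini-Hochberg adjusted across the 17994 genes (threshold 0.05). By the series text, replicate number marks a shared batch of cells, so the block pairs libraries. Same-numbered libraries deviated together from their group means (r = 0.650 to 0.775), which any difference between the tables would also give. With 2 libraries per group the deviations of batch 2 mirror those of batch 1, so both batches give the same r values. The p-values rest on 2 independent experiments. Averages weight the 4 pairs equally. The fit was tested on simulated data.

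Members and lists were chosen with earlier results of these data known, and no test was made over a list. Values in every library, or ranges, are given for the 2 members per complex with the smallest p in each contrast, the highest and lowest member of each complex, and isoform families. Promoters were matched by current symbol. Alternatives changed 1 choice at a time: pseudocount, low filter, scaling, block, prior, gene types and libraries.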

Additional observations from a re-analysis of the deposited data

Results flagged for a closer look

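For 6 of 93 members (6.45%) the medium response had one sign in both batches of the labelled knockout and the opposite sign in both batches of wild type, as it did for 6.31% of all tested genes. The test of the difference itself (limma interaction) did not pass for any of them (adjusted p = 1 for each). The second listed entry of UQCR11 had a difference of −1.75 on the log2 scale (labelled-knockout response minus wild-type response, unadjusted p = 0.00342, limma). It stood at 2.86 and 2.29 FPKM in labelled-knockout and 4.18 and 4.20 FPKM in wild-type cultures without serine and glycine, against 4.35 and 6.01 FPKM and 1.39 and 1.94 FPKM in complete medium, and it shares its listed locus with UQCR11 and 2 other genes. UQCR11 itself, at 23.3 and 38.1 FPKM in labelled-knockout and 17.2 and 52.5 FPKM in wild-type cultures without serine and glycine, against 20.1 and 43.1 FPKM and 27.9 and 50.9 FPKM in complete medium, did not share the pattern. NDUFA6-AS1, an RNA listed at NDUFA6, had −1.16 (unadjusted p = 0.0448, limma) and stood at 2.29 and 0.223 FPKM in labelled-knockout and 2.40 and 0.819 FPKM in wild-type cultures without serine and glycine, against 3.24 and 1.72 FPKM and 1.23 and 0.598 FPKM in complete medium. It is now named NDUFA6-DT and shares its listed locus with NDUFA6, so reads may have been split between them. SDHAF2, the factor that attaches flavin to SDHA, had −0.35, at 12.4 and 30.2 FPKM in labelled-knockout and 19.8 and 24.05 FPKM in wild-type cultures without serine and glycine, against 12.9 and 36.8 FPKM and 17.3 and 21.1 FPKM in complete medium. ATP5F1, subunit b of the ATP synthase, had −0.19, at 359 and 193 FPKM in labelled-knockout and 407 and 246 FPKM in wild-type cultures without serine and glycine, against 364 and 212 FPKM and 377 and 226 FPKM in complete medium. NDUFB8, an accessory subunit of complex I, had −0.21, at 124 and 76.2 FPKM in labelled-knockout and 125 and 83.1 FPKM in wild-type cultures without serine and glycine, against 129 and 88.9 FPKM and 124 and 75.9 FPKM in complete medium. UQCRB, a small subunit of complex III, had −0.0823, at 83.2 and 265 FPKM in labelled-knockout and 107 and 205 FPKM in wild-type cultures without serine and glycine, against 85.6 and 270.3 FPKM and 102 and 199.98 FPKM in complete medium.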

How the results depend on the processing

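No member was called in any of the 7 contrasts under any of the 22 alternatives (21 for the averages and the interaction). Fitted without the replicate block, the subunit medians stayed at −0.05 (medium, average of pairs) and −0.08 (genotype, average of pairs), as the balanced design makes them, and the block changed no call of a member. The subunit median of the medium comparison stayed negative throughout: −0.0745 with median-of-ratios, −0.101 with TPM, −0.0925 with upper-quartile and −0.116 with protein-coding sum scaling, −0.0230 without both batch 2 libraries labelled knockout, and −0.0791 to −0.0337 over fits that leave out 1 library. That of the genotype comparison was −0.0339 with median-of-ratios, 0.00304 with TPM, −0.0167 with upper-quartile and −0.0129 with protein-coding sum scaling, −0.111 without both batch 2 libraries labelled knockout and −0.111 to −0.0516 with 1 library left out. In serine/glycine-free medium alone it was −0.0108, −0.00832, 0.00342 and 0.00186 under the same 4 scalings and −0.105 to −0.0632 with 1 library left out. In complete medium alone it was 0.0296 with TPM scaling, and in the labelled-knockout medium response −0.131 with TPM scaling and 0.0122 without both batch 2 libraries labelled knockout. Estimates turned sign when 1 library was left out for SDHC (−0.357 to 0.109), SDHA (−0.346 to 0.0494) and UQCR11 (−0.657 to 0.0324) in the wild-type medium response, and for SDHAF1 (−0.0572 to 0.304) in the average one. The same held for SDHAF2 (−0.773 to 0.0807), UQCR11 (−0.0167 to 0.673) and COX7B (−0.436 to 0.0876) in the difference of responses. The second entry of SDHD passed the filter only through batch 1 wild type. Its estimate also turned (−1.32 to 0.119) in the genotype contrast without serine and glycine. The library left out was the wild-type serine/glycine-free one of batch 1 in each of these except SDHC, where it was the wild-type complete one of batch 1. SDHAF2 also turned without either batch 2 complete-medium library, and COX7B without that of the labelled knockout (0.000856). The cause of these changes was not tested. Depth per library is unknown, and members near 1 FPKM rest on few reads.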
